A study of Mus musculus with 16 samples.

Results

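The 10 genes described here encode acyl-CoA synthetases, the enzymes that activate fatty acids and acetate by joining them to coenzyme A. They were picked by name from the 55335 genes of the count table and comprise Acsl1, Acsl3, Acsl4, Acsl5, Acsl6, Acsf2, Acsf3, Acsbg1, Acss1 and Acss2, each listed in the table on a single line. The names were chosen with earlier results of these mice known, and Acsf2 stands in the set because of its pattern across the groups. The values, intervals and calls of the 10 genes are therefore given as descriptions, and the calls are not read as independent tests. All 10 passed the filter on low counts that left 16475 genes for testing.

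Hippocampi of 16 female mice aged 10 months were sequenced in bulk, 4 mice in each of 4 groups. WT mice were C57BL/6J x 129S1 animals, and 3xTg mice were B6;129-Psen1tm1MpmTg(APPSwe,tauP301L)1Lfa/Mmjax, in which human mutant APP and tau are driven by the neuronal Thy1.2 element on a mutant PS1 knock-in background. Because WT mice came from the background strain and were bred as a line of their own, the transgenes, the knock-in and any line difference cannot be told apart. All 16 mice had a cannula in the lateral ventricle and a pump that ran for 28 days: WT-D and 3xTg-D mice received vehicle (0.8% DMSO in artificial cerebrospinal fluid), and WT-S and 3xTg-S mice received CAY10566, an inhibitor of stearoyl-CoA desaturase (SCD), at 80 µM in the same vehicle. The treatment labels name the Cayman compound, whereas the infusion protocol entered for every mouse gives another SCD inhibitor, ab142089.

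Acyl-CoA synthetases use ATP to form the thioester that commits a fatty acid to membrane lipids, triglycerides, cholesteryl esters or mitochondrial oxidation. SCD, the target of CAY10566, acts on such thioesters and not on free fatty acids. The families are split by chain length: the ACSL enzymes take long chains, ACSBG1 long and very long chains, ACSF2 medium chains, ACSF3 malonate, and the ACSS enzymes acetate. In the brain, ACSL6 is known for retaining docosahexaenoic acid, ACSL4 for its preference for arachidonic acid, and ACSBG1 for its expression in astrocytes.

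Each library held 15413385 to 23590149 reads on genes. Values are CPM, reads scaled to library size with TMM factors, and fold changes are log2 values of the group named last over the group named first. A gene was called where its p in edgeR's quasi-likelihood test was at most 0.01 before adjustment, the threshold used in the study, and Benjamini-Hochberg adjusted values over all 16475 genes are given where a test is reported. Thy1, whose element drives both transgenes, had 517 to 625 CPM in WT and 1566 to 2141 CPM in 3xTg mice, so no WT mouse overlapped with a 3xTg mouse. Defining markers of neurons, astrocytes, oligodendrocytes and microglia were detected in the labelled tissue, and no marker gene used here was at 0 in all mice. In bulk tissue, fewer cells of a type and less RNA per cell cannot be told apart.

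Per kilobase of exon, the 10 genes spanned a wide range. Acsl3, an enzyme of the endoplasmic reticulum and of lipid droplets, was highest with 66.0 ± 7.53 CPM per kb (SD, n = 16), and no mouse overlapped with the next gene. Acsbg1 followed with 34.6 ± 4.89, Acsl4 with 31.1 ± 1.53 and Acsl6 with 25.7 ± 1.37 CPM per kb, and each of these ranges overlapped with its neighbour in the order. Acsl5 had 15.5 ± 1.06 and Acss1 7.47 ± 0.707 CPM per kb, both apart from their neighbours. Acsl1, with 5.40 ± 0.292 CPM per kb, overlapped with Acss2 at 4.87 ± 0.411 CPM per kb. Acsf3 and Acsf2 were the lowest, with 3.04 ± 0.344 and 2.40 ± 0.380 CPM per kb, and their ranges overlapped. Acsf2 rested on 121 to 264 reads per mouse and Acsl3 on 4198 to 8489, so the counting error of Acsf2 is the larger.

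**Figure D1:**
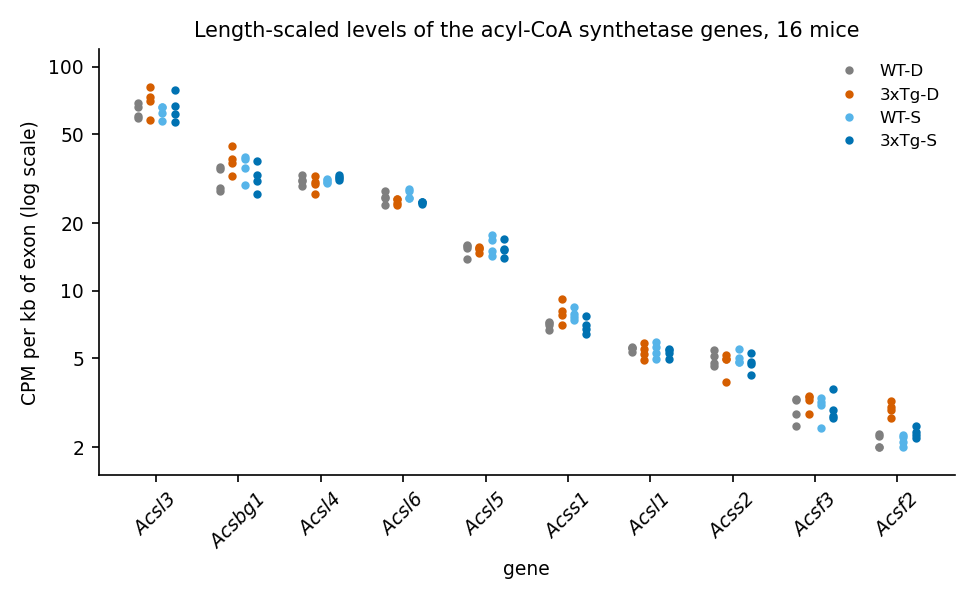
Level of each acyl-CoA synthetase gene in each of 16 mice, in CPM per kilobase of exon on a log scale, with genes ordered by their mean and points coloured by group. Acsl3 stands above all other genes with a mean of 66.0 CPM per kb, and the 3xTg-D points of Acsf2 stand above those of the other groups.

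The spread over all 16 mice was also unequal. Acsf2 had the highest coefficient of variation of the 10 genes, 15.8%, and Acsl4 the lowest, 4.92%, where the median over all tested genes was 12.4%. Acsbg1 varied by 14.1%, Acsl3 by 11.4% and Acsf3 by 11.3%, while Acsl6 and Acsl1 varied by 5.31% and 5.41%.

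Acsf2, a mitochondrial medium-chain acyl-CoA synthetase, was the member with the clearest group pattern. The gene (ENSMUSG00000076435.3) lies on chromosome 11 from 94557102 to 94601871 on the minus strand (GRCm38). In WT-D mice 1 to 4 Acsf2 had 6.89, 7.88, 6.91 and 7.71 CPM. In 3xTg-D mice it had 10.1, 11.1, 9.29 and 10.4 CPM. In WT-S mice it had 7.23, 7.77, 6.88 and 7.60 CPM, and in 3xTg-S mice 8.50, 8.01, 7.77 and 7.56 CPM. All 4 3xTg-D mice lay above each of the other 12 mice, whereas the WT-D, WT-S and 3xTg-S ranges overlapped.

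**Figure D2:**
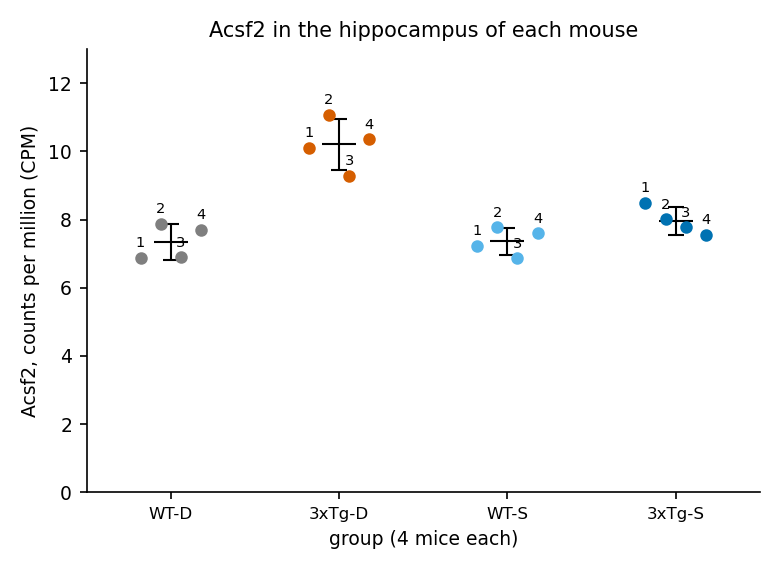
Acsf2 in CPM for each mouse by group, with the mouse number beside each point and bars for the mean ± SD (n = 4). The 4 3xTg-D mice sit between 9.29 and 11.1 CPM, above all mice of the other groups, which reach at most 8.50 CPM.

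Acsf2 averaged 7.34 ± 0.523 CPM for the WT-D group and 10.2 ± 0.738 CPM for the 3xTg-D group, and with CAY10566 7.37 ± 0.399 CPM in WT and 7.96 ± 0.405 CPM in 3xTg mice (SD, n = 4). Its level was 39.3% higher in vehicle-infused 3xTg mice than in their WT counterparts, a log2 fold change of 0.48 with a standard error of 0.098 and a 95% interval of 0.26 to 0.70. With CAY10566 it fell by 22.1% relative to vehicle in 3xTg mice (log2 -0.36, interval -0.58 to -0.14). In WT mice the inhibitor and vehicle groups differed by a log2 value of 0.01, with an interval of -0.22 to 0.23. Relative to WT-D, 3xTg-S mice were higher by a log2 value of 0.10 (interval -0.13 to 0.32), and this difference was 79.5% smaller than that of 3xTg-D mice from the same WT-D mice. In the terms of the study, which calls a gene Restored when it is called between WT-D and 3xTg-D mice but no longer between WT-D and 3xTg-S mice, Acsf2 was a Restored gene, and the same WT-D mice enter both comparisons. The call in 3xTg-D vs 3xTg-S had an edgeR adjusted p of 0.722. It was lost without 3xTg-D mouse 2 or 3xTg-S mouse 4, where the log2 fold changes were -0.33 and -0.34.

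The bases upstream of Acsf2 and Acsbg1, the members with the largest fold changes between the vehicle groups, are shown to let their composition be compared. Both are from the RefSeq promoter table (GRCm38.p6), read 5′ to 3′ on the minus strand and trimmed to bases before the annotated gene start, with matches to the GC box GGGCGG or the CCAAT box CCAAT on either strand in capitals. All 10 members had an entry in that table.
Acsf2, chr11:94601872-94602036: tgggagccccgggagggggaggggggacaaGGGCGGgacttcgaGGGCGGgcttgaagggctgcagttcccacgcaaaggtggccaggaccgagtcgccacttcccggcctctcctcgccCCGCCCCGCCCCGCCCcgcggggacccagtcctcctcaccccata
Acsbg1, chr9:54661886-54662135: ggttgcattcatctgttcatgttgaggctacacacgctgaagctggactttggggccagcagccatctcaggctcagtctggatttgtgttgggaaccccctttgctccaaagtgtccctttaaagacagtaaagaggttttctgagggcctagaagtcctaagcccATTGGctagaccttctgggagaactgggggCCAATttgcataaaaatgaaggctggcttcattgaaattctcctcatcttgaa
The 165 bases upstream of Acsf2 held 5 matches to GGGCGG, of which 3 lie on the other strand and overlap by 1 base, and no match to CCAAT. Of 32851 promoters, 18.8% held GGGCGG in a window of the same length and position relative to the start, and 22.2% held CCAAT. The 250 bases upstream of Acsbg1 held no GGGCGG, found in 32.7% of promoters, and 2 matches to CCAAT, found in 33.8%. Neither window held the E-box CACGTG, the TATA box TATAAA or the cAMP response element TGACGTCA. These matches describe letters and were not tested as sites.

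Acsbg1, the bubblegum-family synthetase of long and very long chains, ran in the same direction as Acsf2 in 3xTg mice but with wider spread. WT-D mice had 101, 126, 129 and 104 CPM, and 3xTg-D mice had 139, 160, 134 and 118 CPM. WT-S mice had 127, 143, 140 and 107 CPM, and 3xTg-S mice had 111, 137, 119 and 97.2 CPM. All groups overlapped, since 3xTg-D mouse 4 lay below 2 WT-D mice. Genotype under vehicle gave a log2 fold change of 0.26 (interval 0.02 to 0.50), and CAY10566 gave -0.25 in 3xTg (-0.50 to 0.01) and 0.17 in WT mice (-0.07 to 0.42), and Acsbg1 was called in none of these comparisons. Under CAY10566 the genotype difference had the opposite sign, with a log2 value of -0.17 (-0.44 to 0.10) that was not called.

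The acetate-activating enzymes differed from each other. For Acss1, the mitochondrial enzyme, WT-D mice had 28.9, 27.6, 29.6 and 29.8 CPM and WT-S mice 34.9, 31.7, 32.6 and 30.7 CPM. All WT-S mice therefore lay above all WT-D mice, at a log2 fold change of 0.17 (interval 0.02 to 0.31), a separation that 1.48% of all tested genes showed between these groups. In 3xTg-D mice Acss1 had 33.4, 37.8, 32.1 and 29.1 CPM, and in 3xTg-S mice 28.9, 31.9, 27.9 and 26.5 CPM. These groups overlapped, with log2 fold changes of 0.19 for genotype under vehicle and -0.20 for CAY10566 in 3xTg mice. Under CAY10566 Acss1 was lower in 3xTg than in WT mice by a log2 value of -0.19 (interval -0.37 to 0.00), which was not called. Acss2, the cytosolic and nuclear enzyme and a target of SREBP transcription factors, ranged from 39.8 to 55.9 CPM over the 16 mice, its groups overlapped in all 5 pairwise comparisons, and its log2 fold changes lay between -0.09 and 0.01. Its widest interval among these comparisons, 3xTg-D vs 3xTg-S, ran from -0.22 to 0.22.

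None of the 5 long-chain ACSL genes was called in any of the 8 comparisons by edgeR, and Acsl6 was called by DESeq2 for genotype over both treatments. Acsl6 in WT mice had 239, 277, 259 and 258 CPM with vehicle and 282, 278, 257 and 258 CPM with CAY10566. In 3xTg mice it had 254, 238, 254 and 246 CPM with vehicle and 248, 248, 246 and 242 CPM with CAY10566. All 3xTg-S mice lay below all WT-S mice (log2 -0.14, interval -0.28 to 0.00), a separation of groups that 6.75% of tested genes showed in either direction, and over both treatments the 3xTg mice had a log2 fold change of -0.09 (interval -0.17 to -0.01). For Acsl3, vehicle-infused WT mice had 263, 300, 288 and 256 CPM and vehicle-infused 3xTg mice 308, 356, 321 and 252 CPM, so that 1 3xTg mouse lay below all 4 WT mice. Acsl3 averaged 277 ± 20.4 CPM for WT-D and 309 ± 43.3 CPM for 3xTg-D mice, a log2 fold change of 0.16 with an interval of -0.06 to 0.38, and it was called without 3xTg-D mouse 4 (log2 0.24). Acsl1, an enzyme of the mitochondrial outer membrane and endoplasmic reticulum, ranged from 51.4 to 61.7 CPM. Acsl4, which supplies arachidonoyl groups for phospholipids, ranged from 146 to 178 CPM, and Acsl5, found on mitochondria, from 67.7 to 86.6 CPM. Genotype under vehicle gave log2 fold changes of -0.04 for Acsl1 (interval -0.17 to 0.09), -0.05 for Acsl4 (-0.19 to 0.09) and 0.01 for Acsl5 (-0.11 to 0.13). CAY10566 in 3xTg mice gave -0.02 for Acsl1 (-0.17 to 0.14), 0.10 for Acsl4 (-0.06 to 0.25) and 0.01 for Acsl5 (-0.15 to 0.16). For Acsl1, Acsl4 and Acsl5 the groups overlapped in every pairwise comparison. Acsf3, the mitochondrial malonyl-CoA synthetase, ranged from 9.17 to 13.6 CPM over the 16 mice, and its groups overlapped in every pairwise comparison too. Its log2 fold change was 0.12 for genotype under vehicle (interval -0.13 to 0.37) and -0.10 for CAY10566 in 3xTg mice (-0.35 to 0.16).

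**Figure D3:**
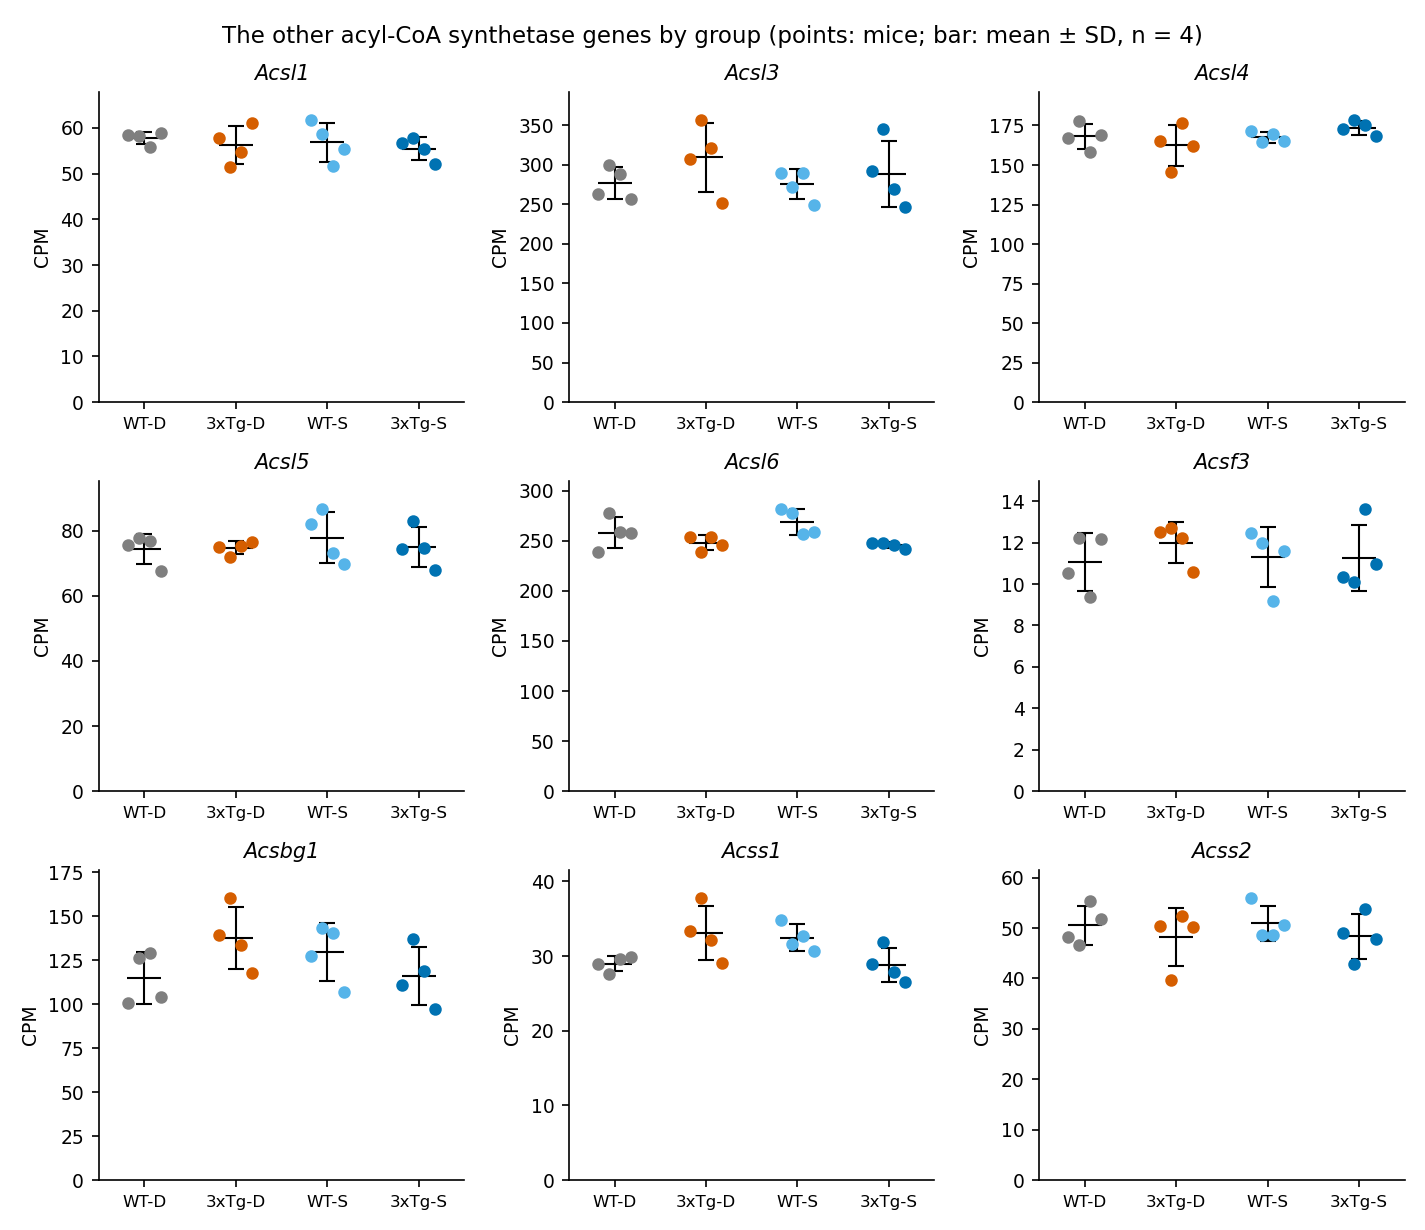
CPM of the other 9 acyl-CoA synthetase genes in each mouse by group, with bars for the mean ± SD (n = 4) and each axis starting at 0. Acsbg1 and Acss1 have their highest value in 3xTg-D mouse 2, at 160 and 37.8 CPM, while Acsl1, Acsl4, Acsl5 and Acss2 overlap across all groups.

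Counted over the 10 genes, 1 was called in WT-D vs 3xTg-D (Acsf2), against 4.91% of all tested genes, and the groups of 1 did not overlap, against 8.17%. Between WT-D and 3xTg-S mice no member was called (5.69% of all genes) and none had groups that did not overlap (9.55%). Under CAY10566, WT-S vs 3xTg-S called no member either (4.26%). In both of these comparisons edgeR gave 0 members at an unadjusted p under 0.05, and DESeq2 called 0. In 3xTg mice CAY10566 vs vehicle called 1 member (Acsf2, against 0.904% of all genes), the groups of 1 did not overlap (3.16%), and at an adjusted p of 0.05 or less none was, nor was any of the 16475 genes. In WT-D vs WT-S 0 members were called against 0.188% of all genes, by edgeR and by DESeq2, with 1 member (Acss1) at an unadjusted p under 0.05, against 2.25%. The genotype effect over both treatments, fitted to all 16 mice, called 1 member (Acsf2, log2 0.30, interval 0.14 to 0.45) against 7.9% of all genes. The treatment effect over both genotypes called 0 against 0.832%, also 0 by DESeq2, with 1 (Acsf2, log2 -0.18) at an unadjusted p under 0.05, against 4.49%. The 10 genes had a median log2 fold change of 0.06 for genotype under vehicle and -0.06 for CAY10566 in 3xTg mice, beside 0.00 and 0.01 over all tested genes. Some of these shares rest on single mice: over all genes 149 were called in 3xTg-D vs 3xTg-S but 802 without 3xTg-S mouse 2, and 31 in WT-D vs WT-S but 516 without WT-S mouse 4. Since Acsf2 was chosen with these comparisons known, its calls are listed and nothing is read from their number.

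Whether the effect of CAY10566 differed by genotype was addressed by the interaction term, the log2 effect in 3xTg minus that in WT mice. Acsf2 had a difference of -0.36 (interval -0.63 to -0.10) and Acss1 of -0.36 (interval -0.60 to -0.13), and both had an unadjusted p of at most 0.01, as did 0.595% of all genes (98, but 487 without 3xTg-S mouse 2 and 380 without WT-S mouse 4). These genes were chosen with earlier results known, so the values describe a difference in response and do not establish one. Acsbg1 had the largest difference, -0.42, with an interval of -0.78 to -0.05, and was not called. For Acss1 the WT groups contributed 0.17 and the 3xTg groups -0.20, whereas for Acsf2 the WT groups contributed 0.01. No member passed an adjusted p of 0.05 in edgeR, the smallest being 0.788, and DESeq2 called Acss1 but not Acsf2 at the unadjusted threshold. Without WT-S mouse 1 neither gene was called, with differences of -0.37 for Acsf2 and -0.33 for Acss1. Over all fits without 1 mouse, Acss1 was called in 14 of 16, the other exception being WT-D mouse 2 (-0.34), and Acsf2 in 5 of 16, those without WT-D mouse 2 or 4, 3xTg-D mouse 3, WT-S mouse 3 or 3xTg-S mouse 1, with differences between -0.41 and -0.33. The remaining 7 members had differences between -0.13 and 0.10, each with an interval that included 0.

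**Figure D4:**
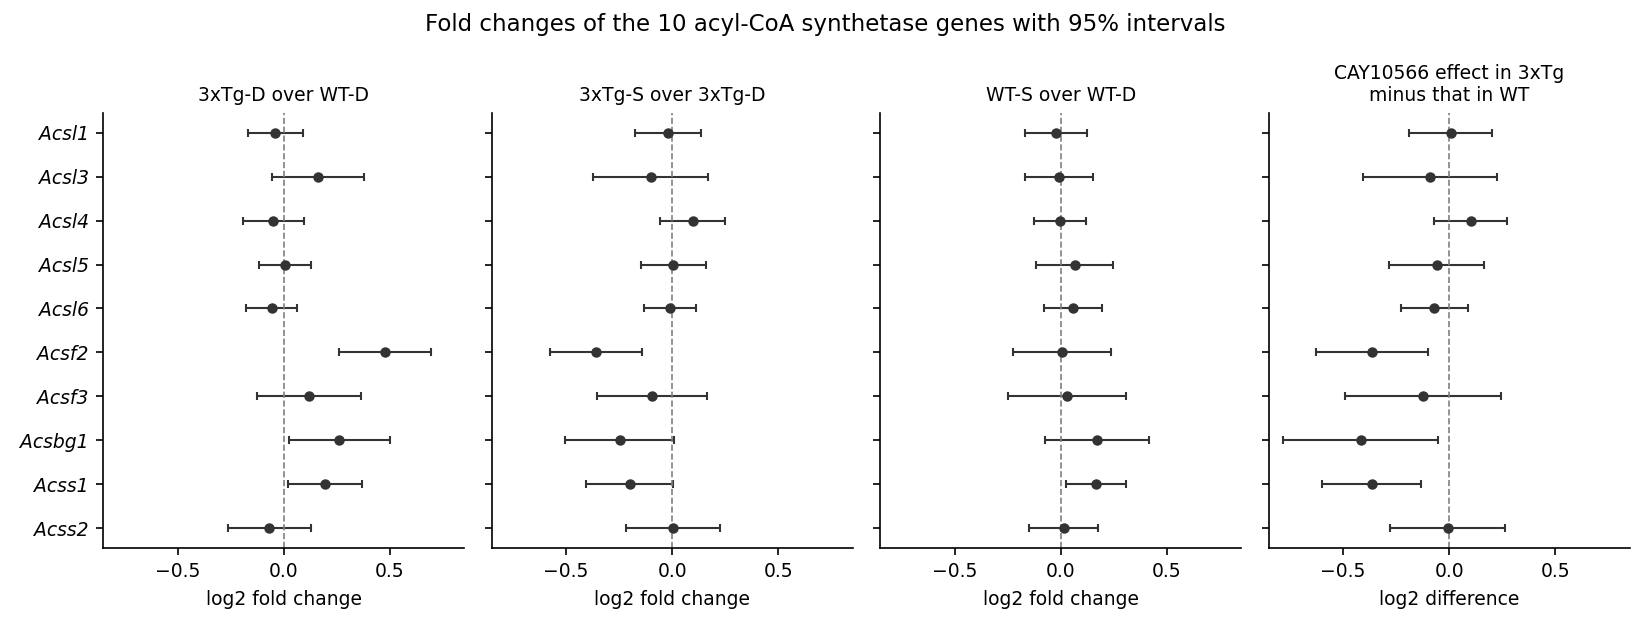
Log2 fold changes of the 10 acyl-CoA synthetase genes with 95% intervals for genotype under vehicle, for CAY10566 in 3xTg mice and for CAY10566 in WT mice, and the difference between the CAY10566 effects in 3xTg and WT mice. Acsf2 lies at 0.48 in the first panel and -0.36 in the second, and the intervals of Acsl1, Acsl3, Acsl4, Acsl5, Acsl6, Acsf3 and Acss2 include 0 in all 4 panels.

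Within a group, several members had their highest or lowest value in the same mouse, and whether members vary together was not tested. In the 3xTg-D group, mouse 2 was highest for Acsl3, Acsf2, Acsf3, Acsbg1 and Acss1 and lowest for Acsl1, Acsl4, Acsl5, Acsl6 and Acss2. This mouse also had the highest summed astrocyte markers of all 16 mice, 8391 CPM, and the lowest summed neuron markers, 6360 CPM. In the 3xTg-S group, mouse 4 was lowest for 8 of the 10 members, and mouse 2 was highest for 7. These mice were singled out after their values were seen.

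Marker genes of other cell types were measured beside the synthetase genes. The summed level of 6 oligodendrocyte markers ran under vehicle from 4267 to 5057 CPM in WT and from 5531 to 6607 CPM in 3xTg mice, and under CAY10566 from 3365 to 5196 CPM in WT and from 4228 to 6620 CPM in 3xTg mice, with all 3xTg-D mice above all WT-D mice. In WT-D vs 3xTg-D 3 of the 6 were called higher, among them Mbp and Mobp, which encode myelin proteins (log2 0.49 and 0.39, edgeR adjusted p = 0.0214 and 0.0275), while Cnp, Mag and Mog had log2 values of 0.13, 0.02 and -0.09 and were not called. In 3xTg-D vs 3xTg-S all 6 had log2 values below 0, and Mag and Cnp were called lower (log2 -0.42 and -0.44, adjusted p = 0.722 for both). In WT-D vs 3xTg-S Mag and Mog were called lower (log2 -0.42 and -0.51, adjusted p = 0.0721 and 0.0883). In WT-D vs WT-S no oligodendrocyte or astrocyte marker was called by edgeR or DESeq2, where edgeR called 0.188% of all genes. At an unadjusted p under 0.05 there were 1 and 0, and the medians of the lists were -0.08 and 0.04. In 3xTg-S mouse 2 the oligodendrocyte sum was 6620 CPM, the highest of the 16 mice, and Acsf2 was 8.01 CPM. In 3xTg-D mouse 2 the sum was 6607 CPM, and Acsf2 was 11.1 CPM, its highest value of the 16 mice. Both mice were picked after their values were seen. The sum of 8 astrocyte markers ran under vehicle from 5913 to 6601 CPM in WT and from 6250 to 8391 CPM in 3xTg mice, and under CAY10566 from 5952 to 7044 CPM in WT and from 6023 to 7199 CPM in 3xTg mice. No astrocyte marker was called for genotype under vehicle or for CAY10566 in 3xTg mice, with 4 and 1 of 8 at an unadjusted p under 0.05 in edgeR, and 1 called by DESeq2 for genotype under vehicle. All 8 had log2 values above 0 in WT-D vs 3xTg-D (median 0.19) and below 0 in 3xTg-D vs 3xTg-S (median -0.20). In the interaction all 8 were below 0 as well (median -0.21), with 0 called. The 6 microglia markers had a median log2 of 0.29 in WT-D vs 3xTg-D, with 5 above 0, and of -0.35 in 3xTg-D vs 3xTg-S, with 6 below 0, and 0 were called by edgeR or DESeq2 in either, with 0 at an unadjusted p under 0.05. Of 4 ependymal markers 3 were called lower in 3xTg-D vs 3xTg-S, and their sums, 13.3 to 21.2 CPM in 3xTg-D mice and a median of 9.78 CPM in 3xTg-S mice, did not overlap between the groups. All 5 blood markers had log2 values above 0 in WT-D vs 3xTg-D and 3xTg-D vs 3xTg-S (medians 0.59 and 0.91), with 0 called in edgeR, 1 and 2 at an unadjusted p under 0.05, and 1 and 0 called by DESeq2. In WT-D vs 3xTg-S, WT-S vs 3xTg-S and the genotype effect edgeR called 3 of the 5 higher in each (medians 1.44, 1.28 and 0.94). Over all genes 5.69%, 4.26% and 7.9% were called there in either direction. The part of any of these cell types in the values of the synthetase genes was not tested. Choroid plexus markers summed to 727 CPM in WT-D mouse 4 and 290 CPM in WT-S mouse 1 and to at most 61.0 CPM in the others. Without WT-D mouse 4 the log2 fold change of Acsf2 in WT-D vs 3xTg-D was 0.49 and it was still called, and without both of these mice the interaction called 0 members.

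**Figure D5:**
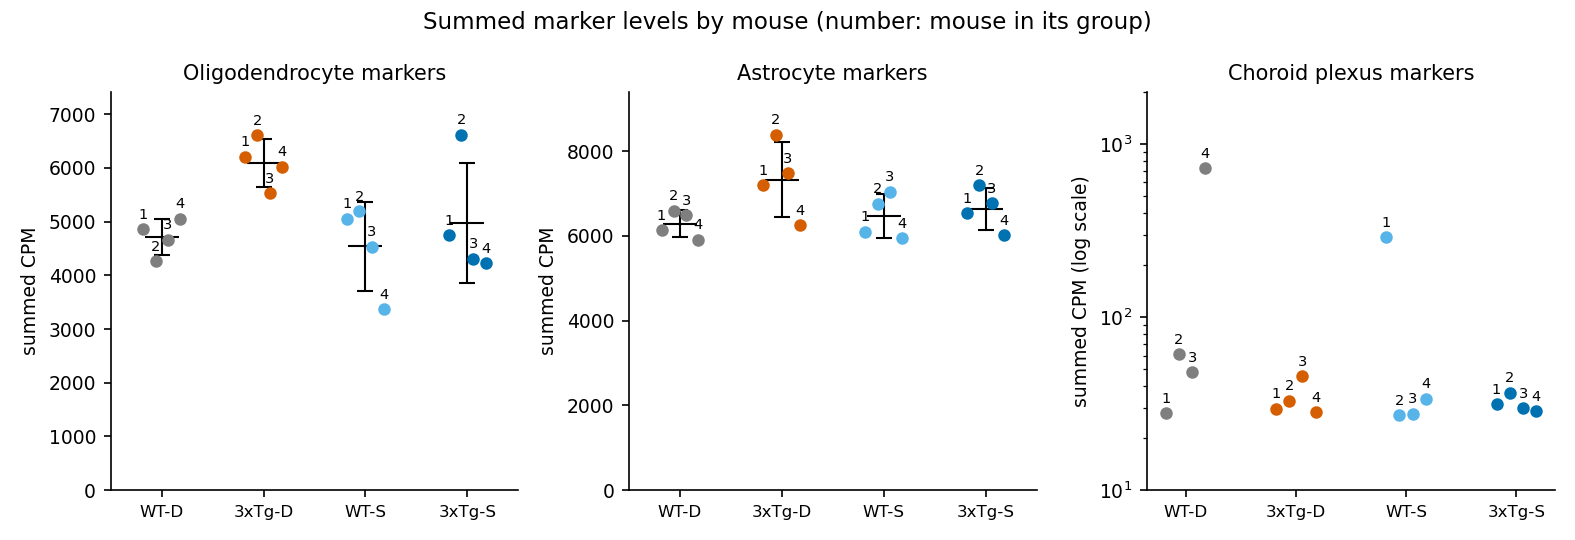
Summed CPM of oligodendrocyte, astrocyte and choroid plexus markers in each mouse by group, with the mouse number beside each point, bars for the mean ± SD (n = 4) in the first 2 panels, and a log scale in the third. The 4 3xTg-D mice lie above the 4 WT-D mice for oligodendrocyte markers, and WT-D mouse 4 and WT-S mouse 1 stand apart for choroid plexus markers.

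Among the other acyl-CoA synthetase genes, 15 of 16 were in the table and 7 passed the filter on low counts: the acetoacetate and propionate enzymes Aacs and Acss3, Aasdh, and the fatty acid transport proteins Slc27a1 to Slc27a4 (Slc27a1, Slc27a2, Slc27a3, Slc27a4). None was called in any of the 8 comparisons by edgeR or DESeq2, and 1 had an unadjusted p under 0.05 in each of WT-S vs 3xTg-S, the interaction and the genotype effect. Slc27a4 was the highest of these 7, with 12.9 CPM per kb, and lay between Acsl5 and Acss1 in level. The medium-chain genes of the Acsm family, which are enzymes of liver and kidney, were at or close to the limit of detection, with 0 reads in all mice for Acsm1 and Acsm2 and 62 reads over all 16 mice for Acsm3.

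Genes that handle the products of these enzymes were counted the same way. Of 14 acyl-CoA thioesterases, which hydrolyse acyl-CoA back to the fatty acid, 13 were tested and 0 were called in any comparison by edgeR or DESeq2, with at most 2 at an unadjusted p under 0.05. Of 5 acyl-CoA binding proteins tested, Dbi, which carries acyl-CoA through the cytosol, was called lower in 3xTg mice. Under vehicle Dbi had 139 ± 13.8 CPM in WT and 103 ± 17.4 CPM in 3xTg mice, and under CAY10566 142 ± 22.9 and 82.9 ± 14.5 CPM (SD, n = 4). Its log2 fold change for genotype was -0.43 under vehicle (edgeR, adjusted p = 0.119), -0.77 from WT-D to 3xTg-S mice (adjusted p = 0.0140), -0.79 under CAY10566 (adjusted p = 0.0257) and -0.61 over both treatments (adjusted p = 0.00166). Dbi was not called in 3xTg-D vs 3xTg-S, where the log2 fold change was -0.31, nor in WT-D vs WT-S. The other 4 binding protein genes tested were called in no comparison.

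Of 25 acyltransferases that consume acyl-CoA, 23 were tested. Cpt1a, which starts the mitochondrial import of long-chain acyl groups, was called higher in WT-D vs 3xTg-D (30.6 ± 1.58 against 35.7 ± 2.80 CPM, log2 0.23, edgeR adjusted p = 0.177), and its log2 fold change in 3xTg-D vs 3xTg-S was -0.20, not called. Over both treatments the peroxisomal Crot was called higher in 3xTg mice (log2 0.24), and Mboat7 and Agpat4, which build phospholipids, were called lower (log2 -0.17 and -0.14), with edgeR adjusted p from 0.0649 to 0.126. No acyltransferase was called in 3xTg-D vs 3xTg-S, WT-D vs WT-S or the treatment effect by edgeR or DESeq2, with 2, 0 and 0 genes at an unadjusted p under 0.05.

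Of 16 SREBP target genes, the programme that also includes Acss2, 5 were called higher and 1 lower in 3xTg mice over both treatments, against 3.88% and 4.02% of all genes called in those directions. Hmgcs1, an early enzyme of cholesterol synthesis, had the smallest p (log2 0.34, edgeR adjusted p = 0.00170), followed by Acly, which makes cytosolic acetyl-CoA from citrate (log2 0.19, adjusted p = 0.00525), Sqle (log2 0.24, adjusted p = 0.0131) and Srebf2 (log2 0.18, adjusted p = 0.0163). Srebf1 was called lower in WT-D vs 3xTg-S (log2 -0.37, adjusted p = 0.0392) but was not called over both treatments (log2 -0.18). The remaining genes called over both treatments, with the 1 called lower among them, fall outside the 5 named from this list. Acss2 itself had a log2 fold change of -0.07 over both treatments, with an interval of -0.20 to 0.06. In 3xTg-D vs 3xTg-S, WT-D vs WT-S and the treatment effect, 0 SREBP target genes were called by edgeR or DESeq2, with 1, 0 and 2 at an unadjusted p under 0.05.

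The tested genes whose log2 CPM over the 16 mice correlated best with Acsf2 were Aldh9a1 (Pearson r = 0.88), Dipk1c (0.84), Txlnb (0.83), Gm42918 (0.83) and Trp53bp2 (0.83). These are the highest of 16475 correlations and describe the same libraries, so no p is given. Aldh9a1, an aldehyde dehydrogenase of carnitine synthesis, had 36.7 to 42.7 CPM in 3xTg-D mice, above the 29.3 to 32.3 CPM of WT-D, the 30.0 to 33.7 CPM of WT-S and the 29.8 to 35.8 CPM of 3xTg-S mice. For Acsl6, the member next in order of p for genotype, the genes most alike were Dctn5 (r = 0.92), Habp4 (0.81), Scg2 (0.80), Sars (0.79) and Slc7a10 (0.79). Dctn5 had 59.1 to 65.5 CPM in 3xTg-S and 70.5 to 85.7 CPM in WT-S mice. Aldh9a1 and Dctn5 were picked for their likeness to Acsf2 and Acsl6 in these mice, so the separation of their groups follows in part from that choice.

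Genes around the members were counted as well. Of 126 tested genes that start within 500 kb of a member, 10 (7.94%) were called in the genotype effect, beside 7.9% of all genes. Near Acsf2, 2 of 18 were called: Abcc3, an organic anion transporter, with a log2 fold change of 0.86, and Samd14 with 0.23 (edgeR adjusted p = 0.00167 and 0.0243). Near Acsbg1, Cib2 was higher (log2 0.19), and Dnaja4 and Chrna5 were lower (log2 -0.28 and -0.58). Near Acss1, Cst7, a cystatin of activated microglia, was higher (log2 2.28), near Acss2 Ahcy was lower (-2.18) and Myh7b higher (0.57), and near Acsl5 Zdhhc6 was higher (0.13) and Vti1a lower (-0.13). No tested neighbour of Acsl1, Acsl3, Acsl4, Acsl6 or Acsf3 was called.

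Overlapping annotation bears on some counts, since the strand setting of the counting is not stated. No exon base of Acsf2, Acsf3, Acsbg1 or Acsl4 was shared with another gene, and Chad, which lies within Acsf2 on the opposite strand, had 0 to 5 reads per mouse. Acsl5 shared 8.31% of its exon bases with Zdhhc6 on the opposite strand, and Zdhhc6 itself was called higher in 3xTg mice. Acsl1 shared 9.91% with Gm45244 on the opposite strand, which had 0 to 2 reads per mouse. Acsl3 shared 5.60% with Utp14b on the same strand, and Acss2 shared 3.89% with Gss and 1.94% with Ggt7, both on the opposite strand. Reads ambiguous between genes are counted apart from genes, so reads in shared bases may be missing from the count of a member.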

How the data were processed

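Hippocampal RNA of 16 mice was sequenced as single-end reads with unique molecular identifiers. Per the labels and the study's methods, the authors trimmed reads with Trimmomatic 0.35, aligned them with STAR 2.5.1b to GRCm38 with Gencode annotation, and deposited raw read counts per gene, not normalized. Strand setting and use of the identifiers are not given in the sources used here. The table holds 55335 genes and 4 summary lines, which were left out of library sizes. Reads outside genes made up 7.82 to 15.1% of the reads on genes, outside genes or ambiguous between genes. Multimapping reads do not enter this share.

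Groups came from sample titles and treatment labels. Genes were filtered with filterByExpr (minimum count 10, minimum total 15), libraries were scaled by TMM, and groups were compared pairwise by edgeR 4.0.16 quasi-likelihood tests (R 4.3.3, two-sided), as the study compared its groups pairwise. The interaction, genotype and treatment effects used all 16 mice. DESeq2 1.42.0 with its likelihood ratio test stood in for the study's TCC procedure as an alternative. The fits were checked on simulated counts.

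The 10 genes, the related lists and the markers were chosen with earlier results of these data known. All 10 genes are named. From each related list, at most 5 genes called in any comparison are named. Also named are the 5 genes most correlated with Acsf2 and with the member next in p for genotype, and called genes within 500 kb of a member. Alternatives were other size factors, other count filters, a replicate block, the share of reads outside genes as covariate, all 16 mice in one fit, an adjusted threshold, each mouse left out, and, chosen after seeing the data, leaving out the choroid plexus libraries. Exon lengths came from Gencode M21, where 54899 of the genes had the same span.

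Replicate libraries differed by more than counting noise (chi-square per degree of freedom 3.78 to 45.2). The labels number mice 1 to 4 in each group without naming a shared litter or day. Correlations of same-numbered mice's deviations were over 0.1 for every pair in WT-D vs WT-S (0.114 to 0.340), where the block called 0 members as well, and not in the other comparisons. P-values measure the spread between these mice. The values of 1 marker gene are not reported here on their own.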

Additional observations from a re-analysis of the deposited data

Results flagged for a closer look

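The log2 effect of CAY10566 in 3xTg minus that in WT mice was -0.364 for Acsf2 and -0.365 for Acss1, listed here because the unadjusted p of the interaction term was at most 0.01 in edgeR. Both genes were chosen with earlier results known and neither passed an adjusted p of 0.05 in edgeR over all genes (0.788 for both), so a difference between genotypes is not shown. DESeq2 called Acss1 and not Acsf2, and of 16 fits without 1 mouse Acss1 was called in 14 and Acsf2 in 5. Over the 40 combinations of the 10 genes and 4 groups, 0 held a mouse far from the other 3 by Dixon's criterion at the 95% level, where chance would give about 1 in 20.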

How the results depend on the processing

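No log2 fold change of a member changed sign while called, and all 1480 recomputed values moved by less than the spread between replicates. Numbers of members called changed as follows, and the cause was not tested. In WT-D vs 3xTg-D the replicate block gave 2 (Acsbg1 and Acsf2), and leaving out single mice gave 1 to 3, with 3 (Acsf2, Acsl3 and Acss1) without 3xTg-D mouse 4. In 3xTg-D vs 3xTg-S the adjusted threshold gave 0, the replicate block 3 (Acsbg1, Acsf2 and Acss1), and leaving out single mice 0 to 2, with 0 without 3xTg-D mouse 2 or 3xTg-S mouse 4 and 2 without 3xTg-S mouse 2. In the interaction the adjusted threshold gave 0, DESeq2 1 (Acss1), the share of reads outside genes as covariate 0, and single mice left out 0 to 2, with 0 without WT-S mouse 1. Leaving out the choroid plexus libraries, chosen after seeing the data, also gave 0 there, and 56 over all genes. In the genotype effect DESeq2 gave 2 (Acsf2 and Acsl6), and single mice left out 1 to 2, with 2 without WT-D mouse 1. Acsf2 was called in WT-D vs 3xTg-D under 8 of 8 other settings and in 8 of 8 fits without 1 mouse (log2 0.43 to 0.52). Since Acsf2 was chosen for its pattern in these same mice, these repeated calls are not independent evidence of a genotype difference. Over all genes, the replicate block moved the number called from 149 to 1133 in 3xTg-D vs 3xTg-S, from 31 to 115 in WT-D vs WT-S, from 702 to 1339 in WT-S vs 3xTg-S, from 98 to 624 in the interaction and from 137 to 226 in the treatment effect. Leaving out single mice gave 68 to 802 in 3xTg-D vs 3xTg-S, 22 to 516 in WT-D vs WT-S, 56 to 487 in the interaction and 664 to 1545 in WT-D vs 3xTg-S (937 with all mice), the highest each without 3xTg-S mouse 2, or WT-S mouse 4 in WT-D vs WT-S. With no filter on low counts 355, 180, 208, 284 and 1077 were called in 3xTg-D vs 3xTg-S, WT-D vs WT-S, the interaction, the treatment effect and WT-S vs 3xTg-S. All 16 mice in one fit gave 249 in 3xTg-D vs 3xTg-S and 48 in WT-D vs WT-S, the share of reads outside genes as covariate 49 in WT-D vs WT-S and 228 in the treatment effect, and at least 10 counts in every mouse 20 in WT-D vs WT-S. Outside WT-D vs WT-S the mice share only a number, with same-numbered correlations of -0.0960 to 0.185 in WT-D vs 3xTg-D 0.0158 to 0.391 in 3xTg-D vs 3xTg-S and -0.101 to 0.496 in WT-S vs 3xTg-S. In WT-D vs 3xTg-S 4 of 4 mice correlated best with their own number, a hint from the data and not the design. With 121 to 264 reads per mouse, Acsf2 had the fewest counts of the 10 genes.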
